A study of Mus musculus with 12 samples.

Results

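Alveolar macrophages taken 24 h after reperfusion were compared with those taken 2 h after reperfusion in a mouse lung transplant model, reperfusion being the return of blood to the grafted lung. The comparison uses 8 of the study's 12 RNA-seq libraries, 4 at 24 h and 4 at 2 h, and the other 4, from naive lungs, are given as the untreated background. It covers every gene with a level of at least 1 RPKM in at least 4 of these 8 libraries, 10971 of the 43430 genes in the deposited table. RPKM is the number of reads on a gene divided by the gene's length in kilobases and by the depth of the library.

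All 3 groups are labelled as lung alveolar macrophages of male mice aged 14 weeks with the genotype Cx3cr1gfp/+B6, a reporter allele at the gene of the fractalkine receptor that the naive mice carry too. The word Allo stands in the titles of both reperfusion groups, without an explanation, and not in those of the naive group. No donor or recipient strain is named, and no label says that each library is from a mouse of its own. The p-values below therefore rest on a spread between libraries that may be technical.

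Alveolar macrophages live in the air spaces, where they take up inhaled particles, dying cells and spent surfactant lipid. They maintain themselves largely by dividing in place, under the growth factor GM-CSF from the epithelium, and depend on the lipid-sensing transcription factor PPAR-gamma. On a danger signal they release chemokines that draw neutrophils and monocytes into the lung, and transcripts of such early genes are made and broken down quickly.

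Library totals ranged from 7242824 to 10347265 reads at 2 h and from 9129420 to 11997945 at 24 h. Of the variance over the tested genes, 69.9% lay on the first principal component, which parted the 2 times, and the second, 9.7%, spread the 2 h libraries from -20.9 to 18.3 and the 24 h libraries only from -2.9 to 1.5. The median gene had an SD of 0.136 on the log2 scale among the 2 h libraries and 0.103 among those at 24 h. Of 34 alveolar macrophage genes 32 were tested, and the summed level of the list was 14710 to 15600 RPKM at 2 h and 14870 to 16830 RPKM at 24 h, against 17910 to 18180 RPKM in naive. Chil3 alone held 4388 to 5939 RPKM of it at 2 h and 7059.7 to 8572 RPKM at 24 h. Without Chil3, left out after its values were seen, the sum was 9657 to 10752 RPKM at 2 h and 7814 to 8732 RPKM at 24 h, lower in all 24 h libraries, against 9989 to 10634 RPKM in naive. Itgax, a surface molecule by which these cells are recognised, was 366 to 389 RPKM at 2 h and 195 to 242 RPKM at 24 h, and Siglecf, another, 41.6 to 49.03 and 16.8 to 33.2 RPKM. Summed markers of other cells were far lower. Monocyte markers summed to 17.8 to 25.2 RPKM at 2 h and 41.8 to 68.2 RPKM at 24 h, with Ms4a6c and Fn1 higher and 7 of 11 under 1 RPKM in all 8 libraries. Neutrophil markers summed to 28.3 to 40.8 and 41.8 to 48.1 RPKM, with S100a8 higher, Csf3r and Mmp8 lower, 10 of 14 under 1 RPKM and 2 at 0 in all 8. Epithelial markers summed to 61.9 to 82 RPKM at 2 h and 34.7 to 42.3 RPKM at 24 h, with Epcam, Hopx and Cdh1 lower. In this list 8 of 13 were under 1 RPKM in all 8 libraries. Hopx passed the level filter only through the 2 h libraries, which favours a fall. Epcam alone held 32.2 to 47.4 RPKM of the sum at 2 h and 8.19 to 14.6 RPKM at 24 h. The other 2 tested members, Sftpc and Scgb1a1, named after their values were seen, did not pass. Sftpc was 5.84 to 10.3 RPKM at 2 h and 3.41 to 9.755 RPKM at 24 h, and Scgb1a1 5.48 to 8.7 and 4.85 to 14.5 RPKM. The call of Cdh1 was lost without the filter on low genes (adjusted p = 0.0617). It was also lost without any of 5 single libraries (2 h replicates 2, 3 and 4, 24 h replicates 1 and 2). B cell markers summed to 22.4 to 54.1 and 9.77 to 28 RPKM. In whole-population RNA fewer cells of a type and less RNA per cell cannot be told apart.

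The 2 h libraries carried a set of genes that the naive libraries nearly lacked. Of the genes tested, 54 had a naive mean under 5% of the higher of the 2 h and 24 h means, and 45 of them were lower at 24 h, on 16 chromosomes, 25 of them processed pseudogenes and 11 protein coding. The median of these 45 genes, as a share of each gene's 2 h mean, was 0.981%, 1.83%, 0.764% and 10.03% in the 24 h libraries 1 to 4. Replicate 4 was the highest 24 h library in 36 of the 45. Tpm3-rs7, a near-identical copy of a tropomyosin gene, was 27.5, 23.4, 30.2 and 24.5 RPKM at 2 h and 0.277, 0.482, 0.748 and 2.7 RPKM at 24 h. Pianp and Nrn1, both protein coding, followed the same course, with 4.64 to 6.16 RPKM of Pianp at 2 h and 0.0565 to 0.475 RPKM at 24 h. H2-Ea-ps, the class II E-alpha gene that the B6 reference carries as a pseudogene, was 27.1, 23.4, 22.6 and 19.3 RPKM at 2 h and 1.7, 1.48, 5.2 and 5.11 RPKM at 24 h. It was chosen after its values were seen, as was Eno1b below. For these genes time and other differences between the 2 h mice and the 24 h mice cannot be told apart, and all 45 are among the falls of at least 1 on the log2 scale counted next. Without the 54 genes 2161 others fell, 273 of them by at least 1. The 5% limit does not bound the pattern. Atp6v0e2, outside the 54, was 0.0688 to 0.893 RPKM in naive and 4.145 to 6.416 RPKM at 2 h. At 24 h this gene, chosen after its values were seen, was 0.115 to 0.658 RPKM, highest in replicate 4. How many of the 2161 share the pattern was not counted. Lcn2, lipocalin 2, which withholds iron from bacteria, was the 1 gene of the 54 that rose, being 0.0419 to 0.123 RPKM at 2 h and 1.3 to 2.06 RPKM at 24 h.

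**Figure D1:**
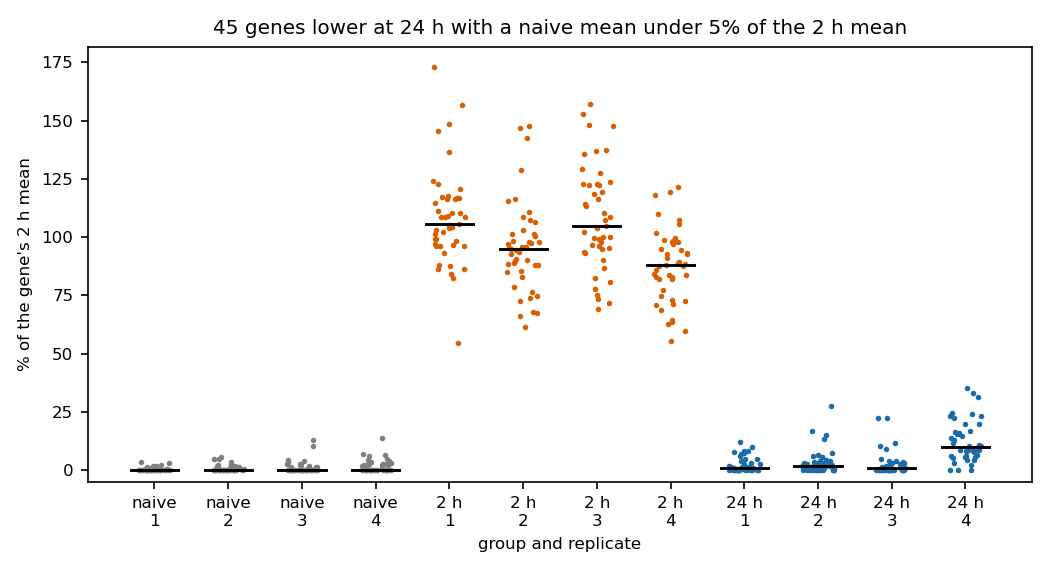
Level of 45 genes (points) in each of the 12 libraries, as a percentage of the gene's 2 h mean, with the median as a line. The 4 libraries at 2 h sit around 100, the naive medians at 0 and the 24 h libraries near 0, with 24 h replicate 4 above the others at a median of 10.03%.

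A large share of the transcriptome differed between the 2 times. Of 10971 genes tested 5510 passed (50.2%, limma, Benjamini-Hochberg adjusted p under 0.05), 3306 of them higher (30.1%) and 2204 lower (20.1%) at 24 h. A log2 fold change of at least 1 was reached by 490 of the genes that rose (4.47%) and 318 of those that fell (2.9%). All 24 h libraries lay above all 2 h libraries in 3120 genes (28.4%) and below them in 2038 (18.6%). The excess of rises depends on the scaling of the libraries. With median-ratio scaling 2751 genes were higher and 2777 lower, and with quantile normalisation 2783 and 2744. The median log2 fold change over all genes tested was 0.05, and -0.01 with either of those scalings.

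Set against naive, many changes crossed the naive level. Of the 3306 genes that rose, 1232 (37.3%) had a 2 h mean below the lowest naive library and a 24 h mean above the highest, and 996 (30.1%) went from within the naive range to above it. Of the 2204 that fell, 677 (30.7%) went from above the naive range to below it, and 510 (23.1%) returned from above it to within it. Protein-coding genes rose in 32.8% and fell in 19.3% of 9434 tested, whereas processed pseudogenes rose in 10.8% and fell in 40% of 130. Without those near 0 in naive, a count added after the values were seen, 27 processed pseudogenes fell (25.7%). In the other gene types snoRNA genes rose in 2.21% of 136 and fell in 22.1%, and lincRNA genes in 18.6% and 25.3% of 194.

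**Figure D2:**
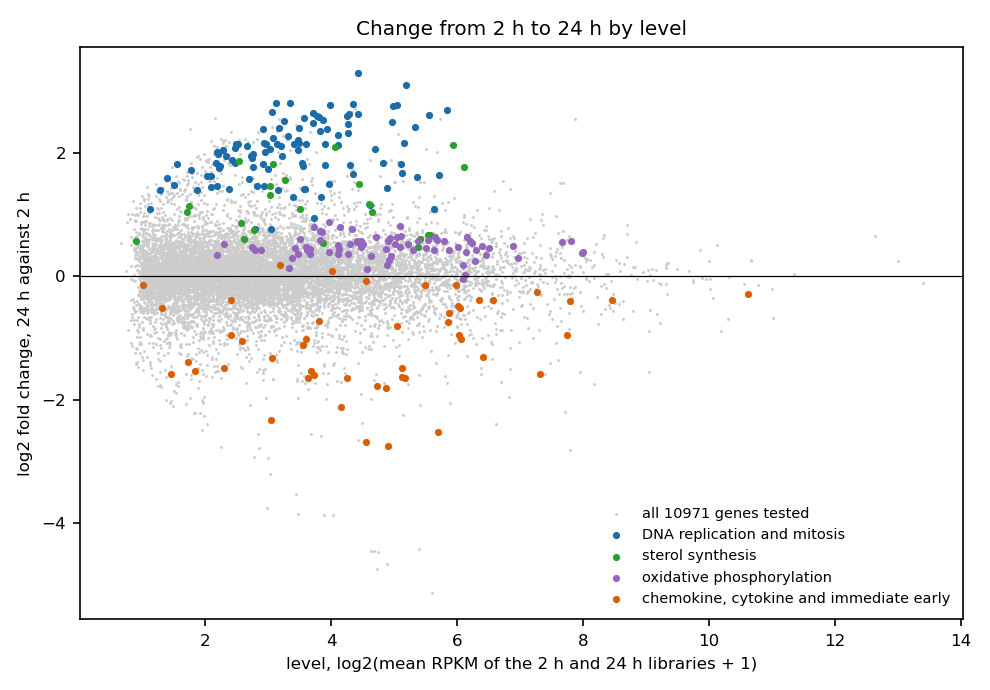
Log2 fold change of 24 h against 2 h over the level of each of the 10971 genes tested, with 4 groups of listed genes coloured. Replication and mitosis genes form the upper edge up to 3.29, sterol and oxidative phosphorylation genes lie above 0 with few exceptions, and chemokine, cytokine and immediate early genes lie mostly below 0.

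Chemokine genes, whose products attract leukocytes, fell between 2 h and 24 h. All 11 tested members were lower, with a median log2 fold change of -1.49. Ccl3 (chromosome 11, 83647844 to 83649355, mm10), a macrophage inflammatory protein, was 120.5, 79.5, 54.8 and 96.97 RPKM at 2 h and 14.4, 13.2, 12.2 and 16.02 RPKM at 24 h. Every 24 h library was below every 2 h library (log2 fold change -2.52 ± 0.21, SE, adjusted p = 2.50e-05), and the 24 h values lay within the naive range of 10.2 to 21.6 RPKM. Its neighbour Ccl4 fell 5.1-fold (log2 fold change -1.54 ± 0.17, SE, adjusted p = 0.000124) and the monocyte attractant Ccl2 4.12-fold (adjusted p = 0.000192). Cxcl3, a neutrophil attractant, also fell, but from a level near naive. It was 4.24, 3.26, 3.69 and 3.97 RPKM at 2 h, close to the naive range of 3.61 to 5.12 RPKM, and 0.909, 0.823, 0.728 and 0.868 RPKM at 24 h (log2 fold change -1.38 ± 0.08, SE, adjusted p = 2.75e-06), below all naive libraries. Cxcl3 passed the level filter only through the 2 h libraries, which favours a fall.

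The 250 bases before the start of Cxcl3 hold a match to the NF-kappaB motif GGANTTTCC, and the sequence is printed to show where it lies in a chemokine gene that fell (RefSeq, GRCm38.p6, chr5:90785851-90786100, plus strand, match in capitals).
Cxcl3: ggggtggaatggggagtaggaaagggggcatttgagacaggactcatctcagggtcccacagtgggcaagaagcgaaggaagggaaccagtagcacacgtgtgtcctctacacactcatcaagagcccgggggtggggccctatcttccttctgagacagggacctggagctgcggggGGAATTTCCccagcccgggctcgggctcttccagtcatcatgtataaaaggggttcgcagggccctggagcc
The match begins 72 bases before the start. Searched on both strands from 250 bases before to 50 after the start, the motif was in 2 of 8 chemokine promoters in the table, in 0 of 8 cytokine promoters, in 1.27% of all tested genes and in 1.23% of all 27025 promoters.

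Of 10 tested cytokine genes 8 fell, 0 rose and 2 did not pass, with a median of -0.67. Il1b, the pro-inflammatory interleukin 1 beta, was 17.3, 13.8, 5.71 and 14.6 RPKM at 2 h and 1.27, 1.26, 1.34 and 2.71 RPKM at 24 h (log2 fold change -2.33 ± 0.31, SE, adjusted p = 0.000338). The 2 h libraries varied, replicate 3 being the lowest and within the naive range of 4.6 to 7.02 RPKM, and all 24 h libraries were below naive. Tnf was 9.44, 11.3, 11.9 and 10.8 RPKM at 2 h and 4.86, 3.01, 3.11 and 4.03 RPKM at 24 h (log2 fold change -1.33 ± 0.13, SE, adjusted p = 5.67e-05). Il1a fell 2.94-fold to 13.7 to 21.2 RPKM, against 14.7 to 23.1 RPKM in naive. Tgfb1, an anti-inflammatory cytokine gene, fell by only 0.39 on the log2 scale but to 73.8 to 87.3 RPKM, under all naive libraries.

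Receptors that sense microbes and danger fell with them in part. Of 24 pattern recognition genes 13 fell, 2 rose and 9 did not pass, with a median of -0.30. Tlr2, the receptor for bacterial lipoproteins, was 403, 385, 376 and 313 RPKM at 2 h and 129, 142, 111 and 120.3 RPKM at 24 h (log2 fold change -1.55 ± 0.10, SE, adjusted p = 4.47e-06), against 167 to 212 RPKM in naive. Cd14, a co-receptor of TLR4 and TLR2, was 249, 236, 107 and 130.2 RPKM at 2 h, with replicates 1 and 2 about level and replicates 3 and 4 lower, and 39.02 to 49.9 RPKM at 24 h (log2 fold change -1.96 ± 0.26, SE, adjusted p = 0.000367). The lectin receptors Clec4d and Clec4n fell by 0.96 and 0.58 on the log2 scale. Among 13 chemoattractant receptors 5 fell, 2 rose and 6 did not pass. Fpr2, a receptor for formylated peptides, fell 1.97-fold (adjusted p = 0.00251) and the CXC chemokine receptor Cxcr1 3.02-fold (adjusted p = 7.12e-05). C5ar2, a receptor for the complement fragment C5a, rose 1.95-fold to 5.32 to 6.78 RPKM, against 6.87 to 8.15 RPKM in naive.

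NF-kappaB is held in the cytoplasm by inhibitors that it induces itself. Of 16 tested genes of this pathway 9 fell, 0 rose and 7 did not pass, with a median of -0.47. The subunit gene Nfkb2 was 12.7 to 14.3 RPKM at 2 h and 4.63 to 7.37 RPKM at 24 h (log2 fold change -1.07 ± 0.12, SE, adjusted p = 0.000108), without overlap. The inhibitors Nfkbie and Nfkbib fell by 0.85 and 0.63 on the log2 scale. Birc3, a ubiquitin ligase of the same pathway, fell by 0.79.

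Immediate early genes, transcription factors induced without new protein synthesis, gave 18 lower, 0 higher and 9 not passed of 27, with a median of -0.95. Atf3, a stress-induced factor, was 60.4, 32.7, 26.6 and 39.7 RPKM at 2 h and 5.77, 4.08, 3.53 and 7.71 RPKM at 24 h (log2 fold change -2.69 ± 0.27, SE, adjusted p = 7.52e-05). Nr4a1, an orphan nuclear receptor, was 108, 65.9, 12.1 and 24.7 RPKM at 2 h and 5.36, 3.06, 6.24 and 5.53 RPKM at 24 h (log2 fold change -2.74 ± 0.59, SE, adjusted p = 0.00469). The groups did not overlap, but the highest 2 h library of Nr4a1 was replicate 1 and the lowest, replicate 3, lay within the naive range of 8.1 to 12.7 RPKM. The small Maf factors Maff, Mafk and Mafg fell 3.74-fold, 2.17-fold and 1.73-fold, with adjusted p of 0.000116, 6.41e-05 and 5.88e-05. Csrnp1 fell 5.29-fold (adjusted p = 0.000584). Fos and Jun, the founding members of AP-1, were chosen after their values were seen. Neither passed, Fos having a log2 fold change of -0.40 (adjusted p = 0.461) and Jun -0.15 (adjusted p = 0.746).

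The spread among the 2 h libraries was wide in these groups. The median immediate early gene had an SD of 0.513 on the log2 scale at 2 h and 0.209 at 24 h, and 24 of 27 varied more at 2 h, against 7003 of all 10971 genes (63.83%). Against the naive mean the list's median was 0.76, 0.67, -0.32 and 0.12 in the 2 h libraries 1 to 4 and between -0.72 and -0.33 in the 24 h libraries, so replicate 3 at 2 h lay next to the highest 24 h library. Feedback inhibitors of MAP kinase and JAK-STAT signalling varied more at 2 h in 17 of 17 genes. Of these, 10 fell, 2 rose and 5 did not pass, with a median of -0.63. Dusp5, a nuclear phosphatase of ERK, was 101, 131, 94.9 and 54.2 RPKM at 2 h and 24.9, 14.4, 22.9 and 24.2 RPKM at 24 h (log2 fold change -2.05 ± 0.27, SE, adjusted p = 0.000299). Cish and Socs2, induced by STAT5, fell by 1.45 and 0.77 on the log2 scale.

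**Figure D3:**
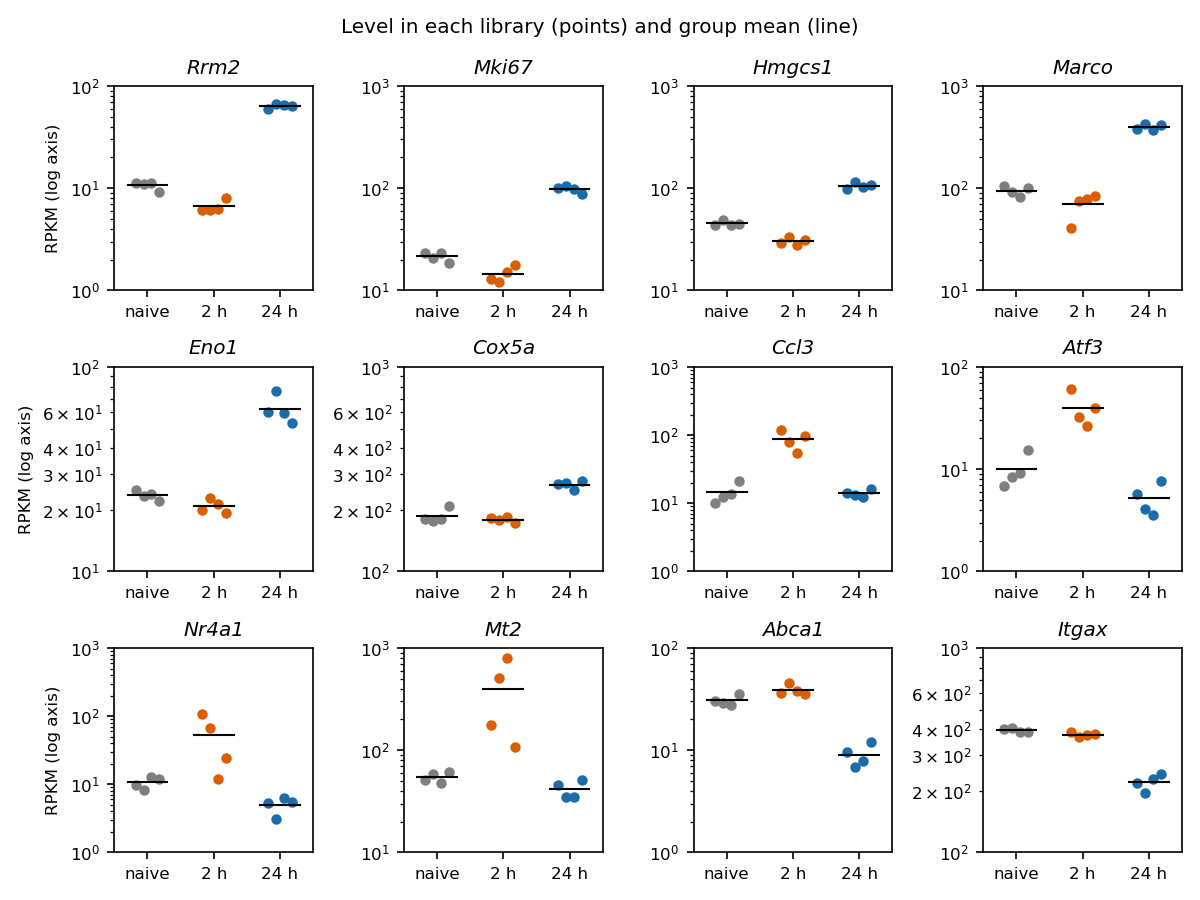
RPKM (log axis) of 12 genes in the naive, 2 h and 24 h libraries, each point a library and the line the mean of 4. Rrm2, Mki67, Hmgcs1, Marco, Eno1 and Cox5a are higher in all 24 h than in all 2 h libraries, and Ccl3, Atf3, Nr4a1, Mt2, Abca1 and Itgax are lower, with a wide spread of Nr4a1 and Mt2 at 2 h.

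Genes that glucocorticoids induce, and clock genes, fell as well. Of 17 glucocorticoid-induced genes 11 fell, 0 rose and 6 did not pass, with a median of -0.94. Klf9, a Krüppel-like factor, was 46.4, 35.7, 33.4 and 28.1 RPKM at 2 h and 3.5, 2.998, 5.79 and 8.09 RPKM at 24 h (log2 fold change -2.65 ± 0.26, SE, adjusted p = 6.18e-05). Per1 and Pdk4 fell 3.95-fold and 2.54-fold, with adjusted p of 0.000533 and 0.00113. Of 12 clock genes 8 fell, 0 rose and 4 did not pass, with a median of -0.55. Per2, a repressor of the clock, was 28.3, 22.998, 16.7 and 15.9 RPKM at 2 h and 2.63, 2.48, 2.44 and 3.12 RPKM at 24 h (log2 fold change -2.55 ± 0.17, SE, adjusted p = 5.90e-06), under the naive range of 4.31 to 6.45 RPKM. Nr1d1, the receptor REV-ERB alpha, fell 2.92-fold (log2 fold change -1.26 ± 0.19, SE, adjusted p = 0.000795). The labels give no time of day of collection.

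Metallothioneins buffer zinc and are induced by zinc and by glucocorticoids. Mt2 was 178, 511, 803 and 107 RPKM at 2 h, with replicates 2 and 3 high, and 46.2, 35.02, 34.9 and 51.4 RPKM at 24 h (log2 fold change -2.82 ± 0.57, SE, adjusted p = 0.00334). Slc30a1, the zinc exporter that zinc also induces, had its 2 highest 2 h values in the same replicates, with 5.52, 11.8, 17.6 and 4.29 RPKM, and was at 0.997 to 1.41 RPKM at 24 h (log2 fold change -2.09 ± 0.36, SE, adjusted p = 0.00137). Tfrc, the transferrin receptor that takes up iron, rose 3.87-fold (adjusted p = 0.000261) and was 2.98 to 5.27 RPKM at 24 h. In the whole list of metallothionein and iron genes 4 of 15 rose, 5 fell and 6 did not pass. The shares over all genes tested were 30.1%, 20.1% and 49.8%.

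**Figure D4:**
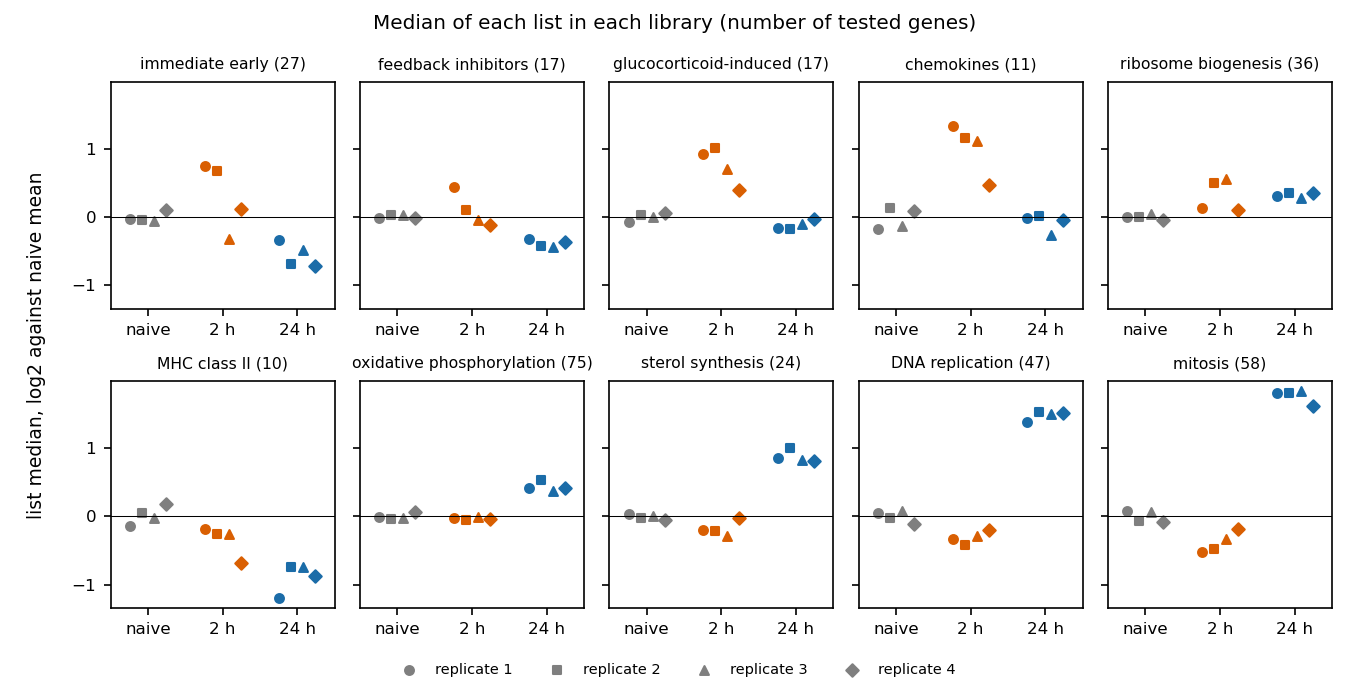
Median of 10 gene lists in each library, as log2 against the naive mean, with 1 marker shape per replicate number. Immediate early, feedback and glucocorticoid-induced genes spread widely at 2 h, while replication, mitosis and sterol genes lie below 0 in the 2 h libraries and between 0.82 and 1.84 at 24 h.

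Genes of DNA replication rose in every member. All 47 tested were higher, with a median log2 fold change of 1.77, and in all 47 the groups did not overlap. Pclaf, a factor that binds the sliding clamp PCNA, had the largest rise of the named genes. It was 2.99, 2.63, 2.93 and 3.4 RPKM at 2 h and 35.2, 41.5, 39.3 and 35.8 RPKM at 24 h (log2 fold change 3.29 ± 0.08, SE, adjusted p = 1.64e-07). Rrm2 (chromosome 12, 24708241 to 24714146, mm10), the regulated subunit of ribonucleotide reductase, was 6.1, 6.17, 6.2 and 8.05 RPKM at 2 h and 59.4, 66.7, 65.6 and 64.1 RPKM at 24 h (log2 fold change 3.10 ± 0.09, SE, adjusted p = 2.25e-07). The 2 h libraries were below the naive range of 9.14 to 11.3 RPKM and the 24 h libraries above it. Rrm1, the partner subunit, rose 6.53-fold (adjusted p = 1.64e-07). The replicative helicase genes Mcm2, Mcm3, Mcm5 and Mcm6 rose 6.21-fold, 4.99-fold, 7.55-fold and 7.34-fold. Asf1b, which hands histones to new DNA, rose 7.67-fold, and Uhrf1, which carries DNA methylation over to the new strand, 10.5-fold.

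Mitosis genes rose in 58 of 58, again without overlap in any, with a median of 2.14. Mki67, the proliferation antigen Ki-67, was 12.8, 12.2, 15.3 and 17.6 RPKM at 2 h and 99.9, 104.6, 98.8 and 88.7 RPKM at 24 h (log2 fold change 2.69 ± 0.11, SE, adjusted p = 6.27e-07). Top2a, the topoisomerase that untangles sister chromosomes, was 7.44 ± 1.51 RPKM at 2 h and 56.2 ± 3.57 RPKM at 24 h (mean ± SD, n = 4 each), a 7.55-fold rise. The spindle motors Kif11 and Kif15 rose 8.29-fold and 8.25-fold, the mitotic kinase Plk1 7.22-fold, and the spindle proteins Nusap1 and Tacc3 6.98-fold and 5.47-fold. Esco2, which holds sister chromatids together, was 1.21, 0.754, 0.908 and 2.06 RPKM at 2 h and 13.3, 13.8, 14.6 and 15.1 RPKM at 24 h (log2 fold change 2.80 ± 0.16, SE, adjusted p = 2.34e-06). Cdkn3, a phosphatase of CDKs, varied from 0.503 to 2.71 RPKM at 2 h and was 13.9 to 18.2 RPKM at 24 h. Mad2l1 of the spindle checkpoint rose 5.61-fold (adjusted p = 4.51e-07). In both lists the 2 h libraries lay under the naive mean, by list medians of -0.41 to -0.20 for replication and -0.52 to -0.19 for mitosis, and the 24 h libraries above it by 1.39 to 1.54 and 1.63 to 1.84.

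Promoters of replication genes are known targets of E2F, and those of mitosis genes of NF-Y and of the complex that binds the cell cycle homology region. The 250 bases before the start of a gene of each kind, and of Cdk1, the mitotic kinase, which rose 6.35-fold and was chosen after its values were seen, are printed to show where those motifs lie (RefSeq, GRCm38.p6, 5′ to 3′ on the gene's strand). Capitals mark TTTNNCGC (E2F) and CCAAT (NF-Y) in Mcm6 (chr1:128359706-128359955, minus strand), CCAAT and TTTGAA (the homology region) in Top2a (chr11:99024190-99024439, minus strand), and all 3 in Cdk1 (chr10:69352913-69353162, minus strand), each read on both strands.
Mcm6: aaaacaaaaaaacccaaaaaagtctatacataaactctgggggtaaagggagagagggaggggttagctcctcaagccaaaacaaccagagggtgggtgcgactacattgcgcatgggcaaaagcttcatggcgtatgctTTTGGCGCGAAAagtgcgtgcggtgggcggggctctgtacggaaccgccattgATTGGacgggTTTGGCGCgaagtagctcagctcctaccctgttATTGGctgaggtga
Top2a: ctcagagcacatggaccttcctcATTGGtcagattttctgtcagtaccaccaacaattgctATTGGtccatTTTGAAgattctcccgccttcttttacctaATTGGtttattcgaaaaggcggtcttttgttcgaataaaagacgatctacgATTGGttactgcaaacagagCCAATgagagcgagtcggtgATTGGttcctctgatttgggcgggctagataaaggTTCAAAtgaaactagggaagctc
Cdk1: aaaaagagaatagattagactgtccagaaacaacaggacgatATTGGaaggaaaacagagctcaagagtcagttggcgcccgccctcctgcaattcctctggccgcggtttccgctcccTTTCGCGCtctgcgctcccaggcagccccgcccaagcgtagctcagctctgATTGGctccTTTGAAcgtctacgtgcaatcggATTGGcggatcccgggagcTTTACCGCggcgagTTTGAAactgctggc
The 3 Mcm6 matches to E2F begin 110, 106 and 47 bases before the start, the first and second overlapping on opposite strands. In Top2a CCAAT occurs 6 times, and in Cdk1 TTTGAA begins 71 and 15 bases before the start. Within 250 bases before to 50 after the start, TTTNNCGC was in 15 of 37 replication promoters (40.5%), in 9.31% of tested genes and in 5.27% of all promoters. TTTGAA was in 36 of 47 mitosis promoters (76.6%), in 12% of tested genes and in 18.1% of all promoters. CCAAT was in 35 of 47 mitosis promoters (74.5%) and in 24 of 37 replication promoters (64.9%), against 39.3% of tested genes and 37.9% of all promoters. Over all genes that rose, TTTNNCGC was in 12.7% and over those that fell in 6.71%.

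Genes that control entry into the cycle gave 19 higher, 4 lower and 4 not passed of 27, with a median of 0.76. The cyclin E genes Ccne1 and Ccne2 rose 7.81-fold and 6.93-fold, with 0.944 to 1.4 RPKM at 2 h and 8.46 to 10.5 RPKM at 24 h for Ccne1. E2f8, a repressor among the E2F factors, rose 9.12-fold (adjusted p = 7.04e-07), and Cdkn2c, an inhibitor of CDK4 and CDK6, 4.38-fold (adjusted p = 3.17e-06). The 4 that fell were the cyclins Ccnd1 and Ccnd2, the CDK inhibitor Cdkn1a and E2f5, with log2 fold changes of -0.43, -1.34, -0.94 and -0.46, named after their values were seen because the count is small. The call of Ccnd1 was lost without the filter on low genes (adjusted p = 0.0541) and without 24 h replicate 1 (adjusted p = 0.0557). DNA repair genes rose in 26 of 27 and 1 missed the threshold, with a median of 1.18. Bard1 and Rad51ap1, which act in repair by recombination, rose 8.67-fold and 9.21-fold, and Bard1 was 0.649 to 0.83 RPKM at 2 h and 5.98 to 6.83 RPKM at 24 h. Fancd2 of the crosslink repair pathway rose by 1.93 on the log2 scale. Bard1, Rad51ap1, Fancd2 and Ccne2 were under 1 RPKM in all 2 h libraries and passed the level filter only through the 24 h libraries. The filter favours a rise in such genes, so the counts of this list and of the cycle lists above can be partly set by it. Of 22 genes of nucleotide and folate metabolism 20 rose, 1 fell and 1 did not pass, with a median of 0.72. Mthfd2, the mitochondrial folate enzyme, was 3.46, 3.5, 3.66 and 3.64 RPKM at 2 h and 12.8, 11.5, 10.98 and 11.9 RPKM at 24 h (log2 fold change 1.48 ± 0.06, SE, adjusted p = 5.70e-07). Paics and Impdh2 of purine synthesis rose 2.67-fold and 2.08-fold.

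The cytoskeleton list gave 10 higher, 3 lower and 1 not passed of 14, with a median of 0.41. Stmn1, which binds free tubulin, was 15.2, 11.8, 14.8 and 16.6 RPKM at 2 h and 94.4, 91.02, 93.04 and 79.1 RPKM at 24 h (log2 fold change 2.54 ± 0.10, SE, adjusted p = 5.70e-07). Tuba1b, Tubb5 and Tubg1 rose 2.69-fold, 2.85-fold and 3.12-fold. Tubulin genes have close paralogs, so their reads may be split between copies. For these genes and those of replication and mitosis, more dividing cells and more RNA per cell cannot be told apart.

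Sterol synthesis genes rose in 24 of 24, with a median of 1.06, and in 23 of them the groups did not overlap. With median-ratio scaling or quantile normalisation 23 rose. These genes carry the path from acetyl-CoA to cholesterol and are controlled by SREBP2. Hmgcs1, an enzyme at the start of the path, was 29.3, 33.03, 28.1 and 30.9 RPKM at 2 h and 98.1, 114, 103 and 107 RPKM at 24 h (log2 fold change 1.77 ± 0.07, SE, adjusted p = 5.47e-07). The 2 h libraries lay below the naive range of 43.7 to 49.3 RPKM and the 24 h libraries above it. Idi1 and Sqle, further down the path, rose 4.84-fold and 4.44-fold, with adjusted p of 3.78e-06 and 5.70e-07.

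Hmgcs1 was the 1 of 17 sterol genes with a promoter in the table whose window held TCACNCCAC, a form of the sterol regulatory element, so its sequence is printed with that match and CCAAT in capitals (RefSeq, GRCm38.p6, chr13:119690101-119690350, plus strand).
Hmgcs1: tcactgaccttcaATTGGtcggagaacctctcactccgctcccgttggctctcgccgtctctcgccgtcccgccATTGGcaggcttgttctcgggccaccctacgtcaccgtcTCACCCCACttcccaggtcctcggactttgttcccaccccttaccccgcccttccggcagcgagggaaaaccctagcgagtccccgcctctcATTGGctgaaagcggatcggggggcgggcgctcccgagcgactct
TCACNCCAC begins 137 bases before the start and was in 1.02% of tested genes and 1.22% of all promoters. CCAAT, which lies at 237, 176 and 45 bases before the start of Hmgcs1, was in 15 of the 17 sterol promoters (88.2%), against 39.3% of tested genes.

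Fatty acid synthesis genes gave 7 higher, 2 lower and 3 not passed of 12, with a median of 0.33. Fads2 and Fads1, the desaturases of polyunsaturated fatty acids, both rose, Fads2 being 0.129 to 0.833 RPKM at 2 h and 3.41 to 5.2 RPKM at 24 h and Fads1 rising 1.8-fold. Fads2 passed the level filter only through the 24 h libraries, which favours a rise. Fasn, fatty acid synthase, rose 2.2-fold (adjusted p = 0.000298). Cholesterol export genes moved the other way, with 8 lower, 2 higher and 3 not passed of 13 and a median of -0.60. Abca1, the cholesterol exporter that LXR induces, was 36.1, 45.2, 37.6 and 35.5 RPKM at 2 h and 9.62, 6.89, 7.88 and 11.9 RPKM at 24 h (log2 fold change -1.99 ± 0.15, SE, adjusted p = 1.30e-05). All 24 h libraries were also under the naive range of 27.6 to 35.4 RPKM. Mylip, which degrades the LDL receptor and is induced by LXR, fell 2.33-fold (adjusted p = 0.000121), and the apolipoprotein gene Apoe 3.6-fold (adjusted p = 0.00035). Apoe is also in the list of interstitial macrophage markers, whose sum was 20 to 22.1 RPKM at 2 h and 7.83 to 12.8 RPKM at 24 h, and the part of those cells in its fall was not tested. Of 19 lipid uptake and storage genes 5 rose, 9 fell and 5 did not pass. The fatty acid transporter Cd36 fell 1.8-fold, the triglyceride lipase Pnpla2 2.02-fold and the lipid droplet gene Cidec 1.51-fold. Hilpda, a lipase inhibitor induced by hypoxia, was 67.1, 55.2, 16.6 and 13.1 RPKM at 2 h and 4.17, 6.02, 5.38 and 4.61 RPKM at 24 h (log2 fold change -2.38 ± 0.49, SE, adjusted p = 0.00361).

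Oxidative phosphorylation genes of the nucleus rose in 71 of 75, with 0 lower, 4 not passed and a median of 0.47. Their changes were smaller than those of the sterol genes. Cox5a, a subunit of cytochrome c oxidase, was 183, 178, 184 and 173 RPKM at 2 h and 267, 271, 249.96 and 276 RPKM at 24 h (log2 fold change 0.56 ± 0.05, SE, adjusted p = 2.58e-05). Cycs, cytochrome c, rose 1.73-fold and Ndufb9 of complex I 1.46-fold (adjusted p = 2.68e-05 and 3.26e-05). The 13 messenger RNAs of the mitochondrial genome did not move with them. There 0 rose, 1 fell and 12 did not pass, with a median of -0.07, and with median-ratio scaling 4 fell. The 1 that fell was mt-Cytb (log2 fold change -0.21 ± 0.05, SE, adjusted p = 0.00559), and with quantile normalisation its log2 fold change was 0.03 and it did not pass, nor did it without the filter on low genes (adjusted p = 0.253). In the TCA cycle 19 of 23 genes rose and 0 fell, with a median of 0.41. Idh3a, the catalytic subunit of isocitrate dehydrogenase, rose 2.12-fold and Sdha of complex II 1.56-fold (adjusted p = 4.74e-05 and 1.26e-05). Fatty acid oxidation genes gave 12 higher, 3 lower and 9 not passed of 24, with a median of 0.13.

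In glycolysis 13 of 21 genes rose, 3 fell and 5 missed the threshold, with a median of 0.48. Eno1, enolase, was 19.9, 22.7, 21.3 and 19.4 RPKM at 2 h and 60.4, 76.5, 59.9 and 53.1 RPKM at 24 h (log2 fold change 1.53 ± 0.11, SE, adjusted p = 8.24e-06), but its near-identical copy Eno1b was 4.48 to 5.56 RPKM at 2 h and 0.0474 to 0.81 RPKM at 24 h, so reads may be split between them and the size of the rise is uncertain. Pgk1 and Pdk1 rose 1.96-fold and 2.54-fold. Pfkfb3, which sets the rate of glycolysis, fell 2.14-fold (adjusted p = 9.69e-05). Among 12 hypoxia targets 3 rose, 3 fell and 6 did not pass, near the shares over all genes tested (30.1%, 20.1% and 49.8%). Epas1, the oxygen-sensitive factor HIF-2 alpha, rose 2.31-fold to 11.3 to 17.1 RPKM. Of 21 NRF2 targets, antioxidant genes, 8 rose, 7 fell and 6 did not pass. The pentose phosphate enzyme Tkt, thioredoxin Txn1 and glutathione reductase Gsr rose 1.61-fold, 1.6-fold and 1.72-fold, and Sqstm1, an autophagy adaptor, fell 1.95-fold (log2 fold change -0.94 ± 0.10, SE, adjusted p = 8.24e-05).

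The lists of protein synthesis differed in how many members rose, against 30.1% over all genes tested. Mitochondrial ribosomal proteins gave 45 higher, 0 lower and 20 not passed of 65 (median 0.35), with Mrpl42 rising 2.14-fold. Aminoacyl-tRNA synthetases gave 15 higher, 0 lower and 5 not passed of 20 (median 0.40), with Vars rising 2.13-fold. Cytosolic ribosomal proteins gave 18 higher, 2 lower and 31 not passed of 51 (median 0.11), and they have many processed pseudogenes that may take up reads. Ribosome biogenesis genes gave 5 higher, 2 lower and 29 not passed of 36 (median 0.02), and the sign of that median changed in 7 of 22 other settings. The medians of that last list were 0.14, 0.50, 0.56 and 0.11 above the naive mean in the 2 h libraries 1 to 4, and 33 of 36 varied more at 2 h than at 24 h. Wdr43, a ribosome assembly factor, was 24.6, 27.6, 27.6 and 22.3 RPKM at 2 h and 13.4, 14.95, 16.4 and 18.4 RPKM at 24 h (log2 fold change -0.66 ± 0.10, SE, adjusted p = 0.000894), and Nhp2, of the particle that modifies ribosomal RNA, rose 1.55-fold.

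The shares over all genes tested were 30.1% higher, 20.1% lower and 49.8% not passed. Proteasome genes rose in 26 of 36, with 1 lower, 9 not passed and a median of 0.35. Psmc3, an ATPase of the cap, rose 1.58-fold and the core subunit Psma6 1.57-fold. Heat shock and chaperonin genes gave 15 higher, 0 lower and 13 not passed of 28 (median 0.33), with 10 to 18 higher over the other settings tried. The chaperonin subunit Cct8 rose 1.31-fold and Ahsa1, which activates HSP90, 1.55-fold. In the unfolded protein response 5 rose, 2 fell and 16 did not pass of 23 (median 0.24), a larger share not passed than over all genes. Over the other settings 2 to 10 rose, 2 with median-ratio scaling or without 2 h replicate 2 and 10 without 2 h replicate 4. The 2 that fell were the transcription factors Xbp1 and Atf6, by 0.50 and 0.52 on the log2 scale. The integrated stress response gave 5 higher, 8 lower and 3 not passed of 16 (median -0.25). Its factor Atf4 fell 1.36-fold, the amino acid transporter chain Slc3a2 1.64-fold, and the serine synthesis enzyme Psat1 rose 3.15-fold (log2 fold change 1.37 ± 0.09, SE, adjusted p = 6.92e-06).

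Genes of antigen presentation to helper T cells fell in 7 of 10, with 1 higher, 2 not passed and a median of -0.67. H2-DMa, which loads peptide onto class II molecules, was 106, 102, 97.4 and 94.1 RPKM at 2 h and 41.9, 32.7, 46.3 and 41.2 RPKM at 24 h (log2 fold change -1.29 ± 0.10, SE, adjusted p = 1.45e-05). Cd74, the invariant chain, was 146, 134, 134 and 88.8 RPKM at 2 h and 58.2, 65.96, 83.8 and 65.97 RPKM at 24 h (log2 fold change -0.85 ± 0.16, SE, adjusted p = 0.00269), replicate 4 being the lowest 2 h library. The gene that rose was Ifi30, a lysosomal thiol reductase, 1.47-fold (log2 fold change 0.55 ± 0.08, SE, adjusted p = 0.000532). Class I genes gave 10 lower, 2 higher and 7 not passed of 19 (median -0.28). H2-D1 fell 1.35-fold (adjusted p = 9.74e-05). H2-Q4, H2-Q6 and H2-Q10 fell by 1.23, 1.18 and 0.86 on the log2 scale, but they are near-identical copies of each other and their reads cannot be told apart with certainty. H2-Q10 was 0.231 to 0.321 RPKM in naive, 1.01 to 1.51 RPKM at 2 h and 0.16 to 0.295 RPKM at 24 h. For H2-Q10, as for H2-Ea-ps above, time and other differences between the 2 h and 24 h mice cannot be told apart. T cell costimulation genes gave 5 lower, 0 higher and 4 not passed of 9 (median -0.43), with the ligand Cd86 at 4.16 to 5.58 RPKM at 2 h and 1.18 to 2.49 RPKM at 24 h and the inhibitory ligand Cd274 falling 1.75-fold. Of all genes tested 49.8% did not pass, and the shares of interferon targets were near that or above it. Of 14 type I targets 5 rose, 1 fell and 8 did not pass (median 0.14), and of 11 interferon-gamma targets 2 rose, 1 fell and 8 did not pass (median -0.10).

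The alveolar macrophage identity list split, with 8 higher, 17 lower and 7 not passed of 32 and a median of -0.26. With other scalings of the libraries as few as 4 rose. Marco, a scavenger receptor for inhaled particles and bacteria, was 41.1, 74.7, 78.5 and 83.6 RPKM at 2 h and 381, 422, 371 and 418 RPKM at 24 h (log2 fold change 2.55 ± 0.20, SE, adjusted p = 1.66e-05). All 2 h libraries but replicate 4 were below the naive range of 81.4 to 106 RPKM, and all 24 h libraries were above it. Itgax, the integrin CD11c, was 389, 366, 375 and 378 RPKM at 2 h and 218, 195, 229 and 242 RPKM at 24 h (log2 fold change -0.77 ± 0.07, SE, adjusted p = 2.99e-05). Plet1 and Csf2ra, the GM-CSF receptor chain, fell 1.46-fold and 1.45-fold (adjusted p = 2.81e-05 and 0.000244). Siglecf, Chil3 and Pparg, also of this list, were chosen after their values were seen. Siglecf fell 1.64-fold to 16.8 to 33.2 RPKM. Chil3, the chitinase-like protein YM1, rose 1.57-fold to 7059.7 to 8572 RPKM, against 7469 to 8119.6 RPKM in naive. Pparg rose by 0.21 on the log2 scale to 49.3 to 58.4 RPKM, under the naive range of 62.3 to 72.3 RPKM. The call of Pparg was lost with median-ratio scaling (adjusted p = 0.0959) and without any of 3 single libraries (2 h replicate 2, 24 h replicates 1 and 3). That of Chil3 was lost without the filter on low genes (adjusted p = 0.0931) and with quantile normalisation. Quantile normalisation gives a gene with the same rank in every library the same value, so for Chil3 that loss was fixed in advance. Of the other scavenger receptors, the high-density lipoprotein receptor Scarb1 rose 1.67-fold and Lrp1, a large endocytic receptor, fell 1.41-fold, and that list gave 4 higher, 5 lower and 1 not passed of 10.

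Fc, complement and growth factor receptor lists held more falls than rises. Over all genes tested 30.1% rose, 20.1% fell and 49.8% did not pass. The lysosome, autophagy and eicosanoid counts below lay near those shares. Fc and complement receptors gave 7 lower, 1 higher and 2 not passed of 10 (median -0.23), with Fcgrt, the neonatal Fc receptor, falling 2.09-fold and the signalling chain Fcer1g rising 1.26-fold. Growth factor and TGF-beta receptor genes gave 13 lower, 2 higher and 9 not passed of 24 (median -0.34), and the interferon-gamma receptor Ifngr1 fell 1.76-fold (adjusted p = 0.000443). Genes for the engulfment of dying cells gave 4 higher, 5 lower and 6 not passed of 15, with 2 to 4 higher under other scalings. The bridging protein genes Mfge8 and Pros1 moved apart, Mfge8 rising 1.94-fold and Pros1 falling 1.54-fold. Lysosome genes gave 12 higher, 12 lower and 23 not passed of 47, or 7 to 15 higher and 11 to 18 lower under other scalings, with Man2b1, a lysosomal mannosidase, falling 1.53-fold. Autophagy genes gave 6 higher, 6 lower and 13 not passed of 25, with up to 10 lower under other scalings. In matrix remodelling and coagulation 4 rose, 7 fell and 4 did not pass of 15. Plaur, the urokinase receptor, was 639.9, 411, 358 and 367 RPKM at 2 h and 118, 125, 129 and 141 RPKM at 24 h (log2 fold change -1.74 ± 0.17, SE, adjusted p = 6.18e-05), under the naive range of 225 to 260.2 RPKM. Mmp12, macrophage elastase, was 2.8 to 6.66 RPKM at 2 h and 0.0852 to 0.97 RPKM at 24 h, and Mmp19 fell 2.84-fold. Eicosanoid synthesis genes gave 4 higher, 5 lower and 9 not passed of 18, with Ptgr1, which inactivates leukotriene B4, rising 2.04-fold. Pla2g7, a secreted phospholipase, was 4.25 to 6.05 RPKM at 2 h and 0.404 to 1.13 RPKM at 24 h. In the BCL2 family 2 rose, 7 fell and 8 did not pass of 17, and the survival gene Mcl1 fell 1.38-fold (log2 fold change -0.45 ± 0.08, SE, adjusted p = 0.00221).

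A few large changes stood outside the lists. Lrg1, a secreted leucine-rich glycoprotein, was 2.74, 6.15, 5.69 and 3.37 RPKM at 2 h and 29.4, 50.7, 32.2 and 22.2 RPKM at 24 h (log2 fold change 2.65 ± 0.28, SE, adjusted p = 9.13e-05), replicate 2 being the highest at both times. Shcbp1, a protein of dividing cells, rose 8.69-fold. Slpi, the secretory leukocyte protease inhibitor, was 182, 144, 147 and 179.5 RPKM at 2 h and 29.5, 29.6, 21.4 and 42.9 RPKM at 24 h (log2 fold change -2.40 ± 0.18, SE, adjusted p = 1.46e-05), with the 2 h libraries around the naive range of 129 to 166 RPKM. Arg2, mitochondrial arginase, was 7.58 to 13.01 RPKM at 2 h and 0.221 to 2.07 RPKM at 24 h, and Crip1, a small zinc-binding protein, fell 4.52-fold (log2 fold change -2.20 ± 0.20, SE, adjusted p = 3.70e-05). Ms4a6c and S100a8, listed as monocyte and neutrophil markers, rose 4.87-fold and 2.71-fold, to 19.3 to 35.5 and 27.9 to 33.8 RPKM. The neutrophil markers Csf3r and Mmp8 fell 2.72-fold and 1.42-fold. The monocyte gene Ly6c2 and the neutrophil gene Ly6g were at most 0.0885 and 0.108 RPKM in any of the 8 libraries. Whether such cells contribute to these rises was not tested.

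**Figure D5:**
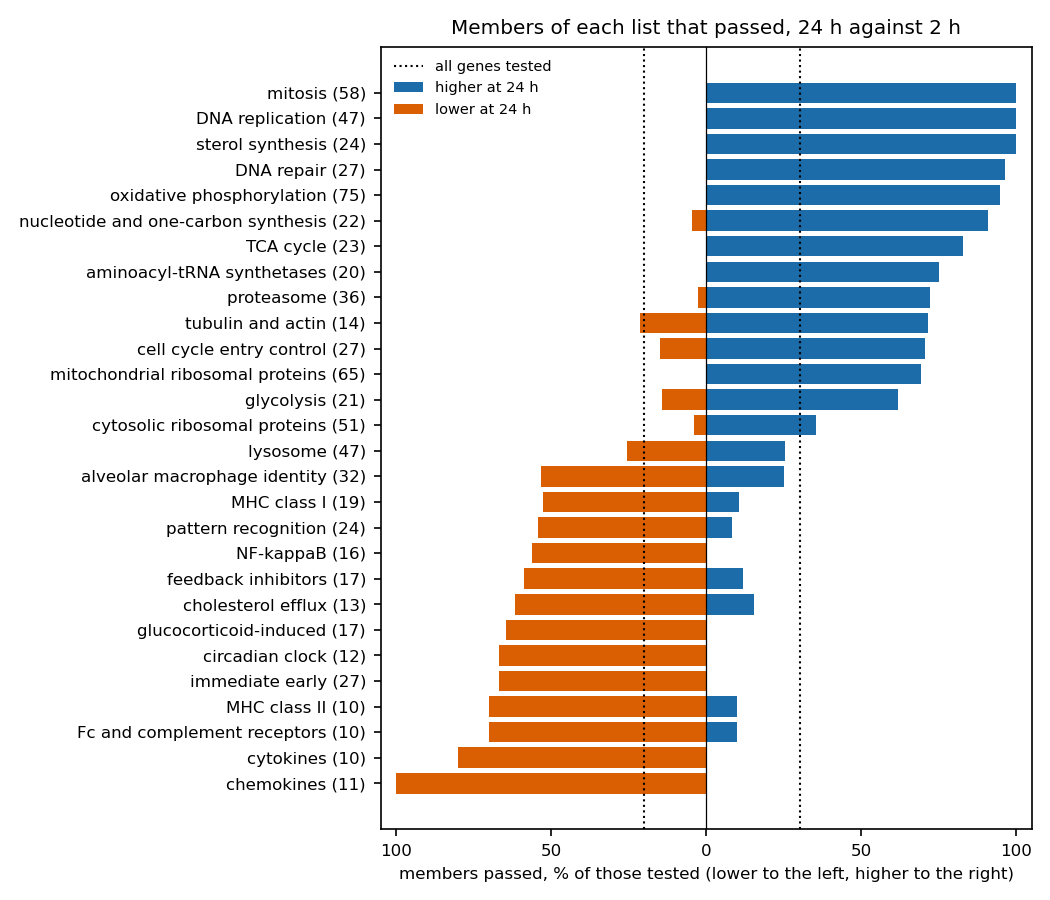
Share of each list's tested members that passed, lower to the left and higher to the right, for 28 lists with the number tested in brackets. Dotted lines mark the shares over all genes tested, 20.1% lower and 30.1% higher.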

How the data were processed

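RNA of lung alveolar macrophages was sequenced as polyA RNA. The deposited table holds RPKM values per gene for 12 libraries, made by the authors with bcl2fastq, TopHat2 and HTSeq on mm10, per the submitters' processing notes; for versions, annotation, gene lengths and filters nothing is given in the sources used here. Symbols were matched in the vM21 annotation for 42546 of 43430 rows (98.0%). Whole reads could be recovered from the steps of the RPKM values (tolerance 0.02 reads), and 3 reads over 1 kb were worth 0.25 to 0.414 RPKM in the 8 libraries. Columns were matched to samples by their names.

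Genes with at least 1 RPKM in at least 4 of the 8 libraries entered a limma (3.58.1, R 4.3.3) model of log2(RPKM + 1) with an intensity trend, a two-sided test, and Benjamini-Hochberg adjustment over all 10971 genes at 0.05. Every adjusted p is from that model, and log2 fold changes understate those of genes near 1 RPKM. The filter admits some genes through 1 time alone, 214 through 24 h and 122 through 2 h. For them it favours a change in that direction. Among the genes named above, Lcn2, Fads2, Ccne2, Bard1, Rad51ap1 and Fancd2 entered through 24 h alone. Cxcl3, Hopx, Mmp12, H2-Q10, Atp6v0e2, Eno1b, Pianp and Nrn1 entered through 2 h alone. Fold values are ratios of mean RPKM. The model was also run on simulated reads with few changed genes and the same relative spread set for every gene. These data differ in both, so that run does not bear on the calls. Members of the lists, and the comparison itself, were chosen with earlier results of these data known, so counts of members are descriptions. Named genes were the 15 largest rises and falls among those that passed with at least 5 RPKM in the higher group, without overlap and without predicted, clone, microRNA or small RNA names, and the 4 or fewer genes per list with the lowest p; any other is said to be chosen after its values were seen. Alternatives were other pseudocounts, filters, scalings, models and left-out libraries. Promoters of 7875 tested genes were read from the RefSeq table (GRCm38.p6).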

Additional observations from a re-analysis of the deposited data

Results flagged for a closer look

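In 21 of 332 groups of 4 libraries, for 166 named genes at each time, the highest or lowest library stood apart from the other 3 by more than Dixon's critical value allows at the 95% level. Chance flags about 1 in 20 groups, and 10 of the 21 lay at 2 h and 11 at 24 h.

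Replicate 4 of the 24 h group stood apart most often among the genes that fell. It was the highest 24 h library for Il1b (2.711 RPKM, next 1.342), Mmp12 (0.9701, next 0.2111 RPKM), Nrn1 (0.7587, next 0.2526 RPKM), Pianp (0.4752, next 0.1001 RPKM) and Eno1b (0.8105, next 0.1575 RPKM), and the lowest for Gsr (131.2, next 142.3 RPKM) and Shcbp1 (24.04, next 27.21 RPKM). Nrn1, Pianp and Eno1b belong to the genes that were near 0 in naive, and the cause was not tested.

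Replicate 4 of the 2 h group was the highest 2 h library for 3 genes of dividing cells, Rrm2 (8.05, next 6.197 RPKM), Kif11 (5.472, next 3.77 RPKM) and E2f8 (1.139, next 0.6774 RPKM). It was the lowest for Nfkb2 (12.71, next 14.06 RPKM), Socs2 (3.787, next 4.679 RPKM) and Atf6 (9.514, next 10.74 RPKM). It has the fewest reads of the 8 libraries, 7242824.

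Single flags fell on other libraries. At 2 h these were replicate 1 for H2-D1 (443.8, next 408.5 RPKM) and Cdh1 (9.931, next 11.91 RPKM), replicate 2 for Eno1b (5.556, next 4.637 RPKM) and replicate 3 for Txn1 (344.3, next 312.4 RPKM). At 24 h they were replicate 2 for Fcgrt (82.87, next 131.4 RPKM), Lcn2 (2.06, next 1.38 RPKM) and Tubg1 (25.34, next 23.02 RPKM), and replicate 1 for Idh3a (36.77, next 40.39 RPKM).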

How the results depend on the processing

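Over 22 other settings the counts of genes higher and lower at 24 h stayed within 1.5 times of 3306 and 2204, except with a filter at 5 RPKM, which tests 6198 genes (2134 higher, 1428 lower). Falls of at least 1 on the log2 scale, 318 as reported, came to 487 with a pseudocount of 0.1, 508 with voom on the recovered reads, 190 with the filter at 5 RPKM and 204 among protein-coding genes alone. Leaving out 1 library at a time gave 2866 to 3294 genes higher, 1862 to 2149 lower, 475 to 514 higher by at least 1 and 283 to 344 lower by at least 1. Replicate numbers did not pair the libraries, with correlations of same-numbered deviations of 0.036, 0.006, -0.023 and -0.01, and with the replicate block 2979 genes were higher and 2031 lower. Of the 164 named genes that passed, Ccnd1, Cdh1, Chil3, Pparg and mt-Cytb lost the call in at least 1 setting and the others in none. With quantile normalisation mt-Cytb had a log2 fold change of 0.02803 (adjusted p = 0.6395) and Chil3 one of 0. That scaling sets 0 for any gene with the same rank in every library, so the value for Chil3 does not bear on its rise. Medians of 9 of the 54 lists with 5 or more tested members changed sign in at least 1 setting, those of hypoxia, ribosome biogenesis, interferon-gamma, scavenger receptor, lysosome, autophagy, eicosanoid and BCL2 genes among them. Library size limits the lowest genes, since 3 reads over 1 kb are worth 0.25 to 0.414 RPKM.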

Other observations

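Genes were also grouped by the start of their symbols, groupings chosen after their values were seen, and members already in a list of the report are left out here. Over all genes tested 30.1% were higher and 20.1% lower at 24 h. Of 17 centromere protein genes (symbols starting Cenp), which build the attachment site of chromosomes, 14 were higher and 1 lower, with a median log2 fold change of 1.30. Nuclear pore genes (Nup) were higher in 15 of 18 with 0 lower (median 0.78), and Fanconi anaemia genes (Fanc), of crosslink repair, in 5 of 6 with 0 lower (median 0.64). Centrosomal protein genes (Cep) gave 20 higher and 2 lower of 29 (median 0.42), and Lsm genes, of RNA splicing and decay, 9 higher and 0 lower of 13 (median 0.61). Some members of the Cenp, Nup and Cep groups, Nup35 and Nup43 among them, were under 1 RPKM in all 2 h libraries. They passed the level filter only through the 24 h libraries. That favours a rise, so the counts of these groups can be partly set by the filter. Orphan receptor genes (Gpr) gave 8 lower and 2 higher of 19 (median -0.33). Histone genes (Hist1) gave 3 lower and 0 higher of 5 (median -1.63), 1 of the 5 being near 0 in naive. Klf genes gave 3 lower and 1 higher of 6 (median -0.34). In the microRNA group (Mir) 13 of 77 were lower (16.9%, under the share over all genes) and 1 higher (median -0.33). Of these 77, 4 were near 0 in naive. Small nucleolar RNA genes gave 13 lower and 0 higher of 35 in the Snord group (median -0.53). In the Snora group 3 of 18 were lower (16.7%, under the share over all genes) and 0 higher (median -0.24), 1 of the 18 being near 0 in naive. The libraries were made from polyA RNA, and the source of these reads was not tested.

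Over the whole table, 214 genes were under 1 RPKM in all 2 h libraries and at or above 1 RPKM in all 24 h libraries, and 100 of these were also under 1 RPKM in all naive libraries. The reverse held for 122 genes, 72 of them under 1 RPKM in all naive libraries. Of these 122, 26 belong to the genes near 0 in naive, for which time and other differences between the mice cannot be told apart, and 96 do not, a split made after the values were seen. Atp6v0e2 is among the 96 though it followed the same course, so the same doubt can hold for others of the 96.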
